A study of Mus musculus with 24 samples.

Results

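Rest encodes REST, the repressor that the labelled mutants of this mouse study concern, and its signal was followed on every array. The members are the probe sets annotated with Rest as their single gene symbol. There were 5 of 80657 in all: 1 of 35556 probe sets on a platform with 18 arrays, 10522712, and 4 of 45101 on a platform with 6 arrays, 1428227_at, 1425564_at, 1425565_at and 1425566_at. No probe set named Rest beside another gene. In the reference annotation GRCm38.p6, Rest lies at chr5:77265494-77286432.

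Embryonic stem cells (ES) were differentiated in culture into neuronal progenitors (NP) and then terminal neurons (TN), and RNA was hybridised to Affymetrix arrays. On the larger platform all cells were of the strain Black Agouti 129, in 6 groups of 3 arrays: ES RESTwt, ES RESTko, NP RESTwt, NP RESTko, TN RESThet and TN RESTko. The TN control was thus heterozygous, whereas the ES and NP controls were wildtype. On the smaller platform the cells were wildtype, of the mixed strain 129Sv-C57Bl/6, with 2 arrays each at ES, NP and TN. How many cell clones a genotype stands for, which exons the RESTko allele lacks and which exons the probes cover were not used here, since the sources at hand do not give them. A probe set outside a deleted part does not check the label, and groups are therefore named as the arrays are labelled. The labels call the arrays biological replicates without saying whether they came from separate cultures, so the p-values measure only the spread between these arrays, and the number of arrays limits their precision.

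REST is a zinc-finger protein that binds a DNA element called RE1 (or NRSE) and represses neuronal genes in stem cells and in non-neuronal tissue. It does so by recruiting corepressor complexes built around CoREST (Rcor1) and Sin3, which carry histone deacetylases and demethylases. During neurogenesis REST falls both through lower transcription and through degradation of the protein after ubiquitination by the ligase subunit β-TrCP (Btrc), and the neuronal splicing factor SRRM4 diverts its transcript to a truncated form.

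The binding motif of REST is long, and a strict form of its core, AGCACC, any 2 bases, then GGACAG, was searched on both strands of the RefSeq promoter windows of GRCm38.p6, each running from 250 bases before to 50 bases after a gene start. It occurred in 17 of 32851 windows (0.0517%), belonging to 16 genes, 14 of them measured on the 18 arrays. The 5 below are shown because their signal was called higher in NP RESTko than in NP RESTwt, and so were chosen by that value. Each stretch is written 5′ to 3′ along the strand that carries the element, with the element in capitals.
Gria2, chr3:80802962-80803035, plus strand: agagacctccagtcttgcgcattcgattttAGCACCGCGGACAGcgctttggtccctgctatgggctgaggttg
Hrh3, chr2:180104547-180104620, plus strand: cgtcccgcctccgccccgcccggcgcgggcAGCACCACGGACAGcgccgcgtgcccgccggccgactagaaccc
Robo2, chr16:75447326-75447399, minus strand: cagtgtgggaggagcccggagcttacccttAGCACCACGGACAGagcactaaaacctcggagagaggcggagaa
Osbp2, chr11:3774764-3774837, plus strand: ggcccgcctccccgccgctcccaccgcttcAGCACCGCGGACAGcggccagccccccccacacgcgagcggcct
Scamp5, chr9:57468168-57468241, minus strand: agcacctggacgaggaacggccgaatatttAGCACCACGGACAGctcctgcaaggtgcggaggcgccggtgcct
The element began 170 bases before the gene start in Gria2, a glutamate receptor subunit, 183 in Hrh3, a histamine receptor, 76 in Robo2, an axon guidance receptor, 139 in Osbp2, an oxysterol-binding protein, and 151 in Scamp5, a secretory vesicle membrane protein. A match describes the letters of the window and is neither a bound site nor a cause of a change.

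Rest signal stood highest in ES cells, lower in progenitors and lowest in the heterozygous neurons, and the arrays labelled RESTko did not have less of it at every stage. Signals are log2 values as deposited, so that a difference of 1 is a doubling. In ES cells the RESTwt arrays read 8.95, 8.99 and 8.95 and the RESTko arrays 8.63, 8.53 and 8.66. In progenitors the RESTwt arrays read 7.48, 7.51 and 7.45 and the RESTko arrays 7.43, 7.40 and 7.57. In neurons the RESThet arrays read 7.02, 7.01 and 7.07 and the RESTko arrays 7.28, 7.38 and 7.46. All RESTko arrays lay below all RESTwt arrays at ES, the genotypes overlapped at NP, and all RESTko arrays lay above all RESThet arrays at TN.

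**Figure D1:**
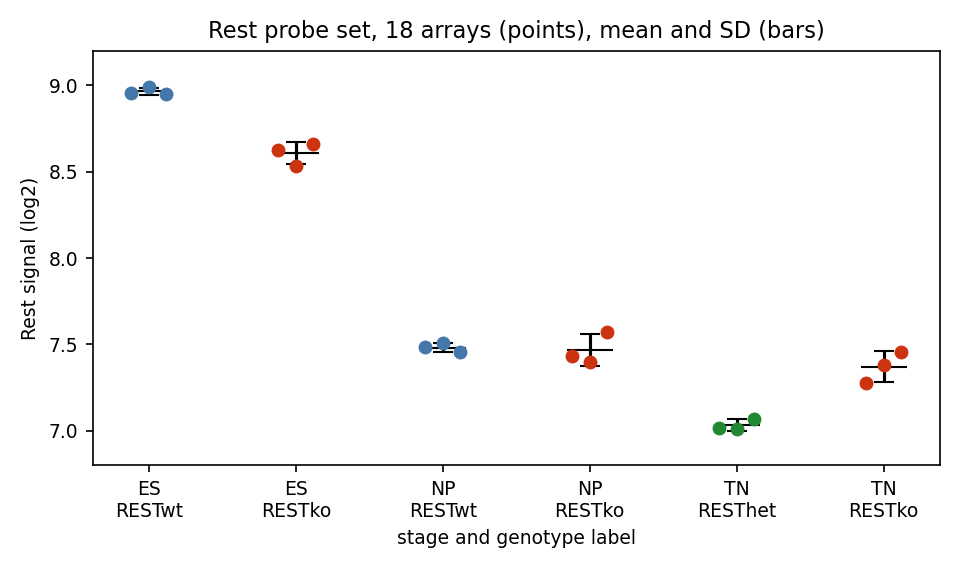
Log2 signal of the Rest probe set on the 18 arrays (vertical axis) by stage and labelled genotype (horizontal axis); points are single arrays and bars the group mean ± SD (n = 3). The RESTko arrays lie below the RESTwt arrays at ES, among them at NP, and above the RESThet arrays at TN.

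As means, Rest signal was 8.96 ± 0.02 (SD, n = 3) in ES RESTwt and 8.61 ± 0.07 (SD, n = 3) in ES RESTko. It was 7.48 ± 0.03 and 7.47 ± 0.09 (SD, n = 3 each) in NP RESTwt and NP RESTko, and 7.03 ± 0.03 and 7.37 ± 0.09 (SD, n = 3 each) in TN RESThet and TN RESTko.

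In ES cells Rest was lower in RESTko than in RESTwt by a modest amount. The gap between the lowest RESTwt array and the highest RESTko array was 0.29. The difference was −0.36 on the log2 scale (SE 0.0647, 95% interval −0.50 to −0.22), a 1.28-fold lower signal, with an adjusted p of 0.00355 (limma's moderated test, two-sided, Benjamini-Hochberg over all probe sets). With the same test 5.41% of all probe sets were called at an adjusted p under 0.05, and 91.4% of genes had a smaller difference in size than Rest. Some listed markers of other cell types moved at this stage as well. Of 15 endoderm and epithelial markers 4 were called higher in RESTko, namely Krt8, Krt18, Krt19 and Dab2. The mean of this list per array was 6.04 to 6.23 in RESTwt and 6.54 to 6.67 in RESTko. Of 12 fibroblast and matrix markers 2 were called higher, Acta2 and Tagln. No other member of these lists was called, and their median differences were 0.12 (endoderm and epithelial) and 0.05 (fibroblast and matrix), against −0.03 for all genes. Of 14 pluripotency markers 2 were called lower, with array means of 10.21 to 10.24 in RESTwt and 10.02 to 10.08 in RESTko. Of all genes 4.09% were called higher and 2.96% lower at this stage. The part of these cells in the Rest difference was not tested, and in bulk RNA fewer cells of a type and less RNA per cell cannot be told apart.

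In progenitors no genotype difference of Rest was detected. The difference between RESTko and RESTwt was −0.01 (95% interval −0.15 to 0.12, adjusted p = 0.971, limma), so differences beyond that interval in either direction lay outside what these arrays allow at the 95% level. The sign of this difference changed in 4 alternatives, none of which called it. Of the 9 pairings of a RESTko with a RESTwt array, 3 had the higher signal in RESTko. In the same comparison 4.13% of probe sets were called, and 7.89% of genes had a smaller difference than Rest.

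In neurons Rest was higher in RESTko than in RESThet. The lowest RESTko array stood 0.21 above the highest RESThet array, and all 9 pairings had the higher signal in RESTko. The difference was 0.34 (95% interval 0.20 to 0.48), a 1.27-fold higher signal, with an adjusted p of 0.0208 (limma), where 0.984% of probe sets were called. The call was lost when the spread was estimated from the neurons alone (adjusted p = 0.236), and when any of 4 arrays was left out: TN RESTko replicate b (0.0692) or c (0.0939), or TN RESThet replicate a (0.0695) or b (0.0612). With single arrays left out the difference stayed between 0.30 and 0.39.

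Markers of other cells were read beside this neuronal difference. At TN 0.256% of all genes were called higher and 0.642% lower, so a short list would hold few calls in any case. Median differences were 0.22 for the fibroblast and matrix list and 0.28 for the endoderm and epithelial list. They were −0.13 for the glial and −0.05 for the neuron list, against −0.02 for all genes. None of 12 fibroblast and matrix markers was called, and their mean per array was 8.001 to 8.39 in RESThet and 8.29 to 8.45 in RESTko. Of 15 endoderm and epithelial markers Lama1, a basement membrane laminin chain, was called (1.53, adjusted p = 0.00339, limma), with array means of the list of 5.28 to 5.53 in RESThet and 5.56 to 6.12 in RESTko. Array means of the 11 measured glial markers were 6.55 to 7.01 in RESThet and 6.06 to 6.57 in RESTko. Of 14 neuron markers 1 was called lower, and the list's array means were 10.4 to 10.57 in RESThet and 10.30 to 10.43 in RESTko. The endoderm and epithelial list was thus separated between genotypes in the direction of Rest, and its part in the Rest difference was not tested.

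The difference between the genotype effects at any 2 stages was itself tested, and only the contrast of TN with ES was called. The effect in neurons exceeded that in ES cells by 0.70 (95% interval 0.50 to 0.89, adjusted p = 0.000589, limma), a contrast in which 3.18% of probe sets were called. The controls at the 2 ends of this contrast carry different genotypes, RESTwt at ES and RESThet at TN, and genotype of the control and stage cannot be told apart in it. The effect in progenitors exceeded that in ES cells by 0.34 (SE 0.0915, 95% interval 0.15 to 0.54, adjusted p = 0.0693, with 2.31% of probe sets called) and did not pass the threshold. The effect in neurons exceeded that in progenitors by 0.35 (95% interval 0.16 to 0.55, adjusted p = 0.0674, with 1.86% called) and did not pass it either. Both passed it without the dimmest 30% of probe sets, at adjusted p values of 0.0468 and 0.0484 (limma). Neither passed it with the compared groups alone (0.111 and 0.169), with array medians subtracted (0.0904 and 0.110) or with the replicate block (0.0775 and 0.0752).

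**Figure D2:**
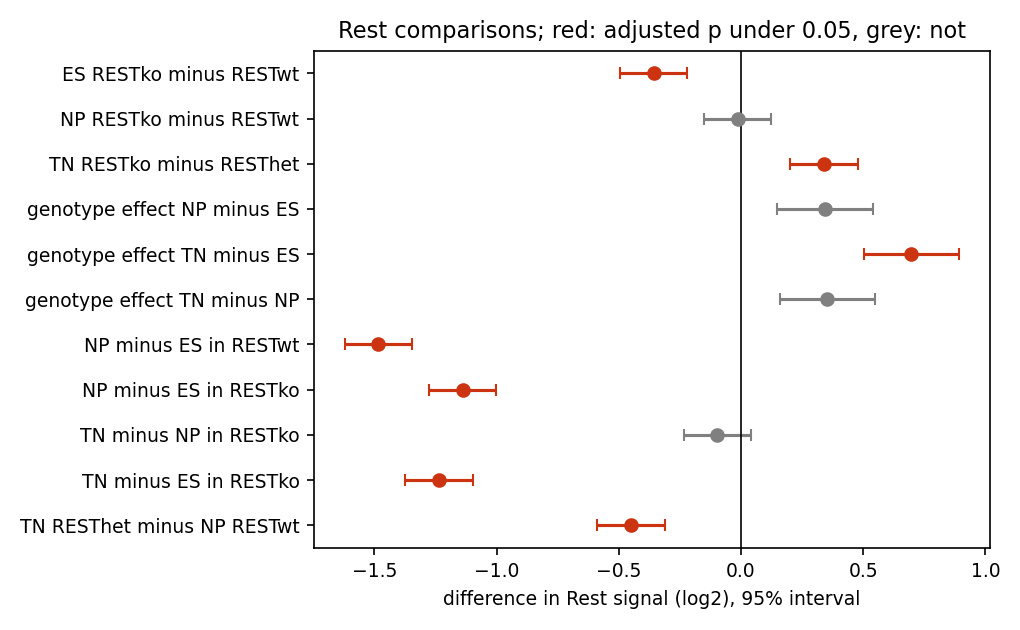
Differences in Rest log2 signal between labelled genotypes at each stage, between these differences, and between stages (horizontal axis, log2), each with its 95% interval from the limma fit of 18 arrays; red marks an adjusted p under 0.05 and grey a higher one. Of the genotype differences, the ES interval lies below 0, the NP interval spans 0 and the TN interval lies above 0.

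On the 18 arrays most of the fall of Rest took place between ES and NP. In RESTwt it fell by 1.48 on the log2 scale from ES to NP, a 2.80-fold lower signal (adjusted p = 4.69e-11, limma), in a step where 56.9% of probe sets were called. In RESTko the difference was −1.14, a 2.20-fold lower signal (adjusted p = 8.03e-10), where 55.7% were called. From ES to TN it fell by 1.24 in RESTko (2.35-fold, adjusted p = 7.36e-11, with 65.4% called), so that 92.2% of this fall had taken place by NP on the deposited values. The share was smaller under other scalings. There the RESTko differences from ES to NP and to TN were −1.31 and −1.65 with array medians subtracted, and −1.12 and −1.35 with quantile normalisation. From NP RESTwt to TN RESThet it fell by a further 0.45 (1.37-fold, adjusted p = 1.76e-05, with 66.3% called), which left 76.7% of the fall from ES RESTwt to TN RESThet before NP on the deposited values. This last step changes genotype together with stage.

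The step from NP to TN within RESTko depended on how the arrays were scaled. On the deposited values the difference was −0.10 (95% interval −0.23 to 0.04, adjusted p = 0.208, limma), in a step where 63.2% of probe sets were called. The median signal of all probe sets rose from 5.02 to 5.07 at ES through 5.19 to 5.26 at NP to 5.41 to 5.49 at TN. With each array's median subtracted, the same step was −0.34 (adjusted p = 0.000630), and with quantile normalisation it was −0.23 (adjusted p = 0.0118).

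Placed in order, the 6 groups ran ES RESTwt, ES RESTko, NP RESTwt, NP RESTko, TN RESTko and TN RESThet. The neighbours ES RESTwt and ES RESTko differed, as did ES RESTko and NP RESTwt (−1.13, adjusted p = 1.04e-09, limma, with 55.5% of probe sets called) and TN RESTko and TN RESThet. The neighbours NP RESTwt and NP RESTko, and NP RESTko and TN RESTko, did not differ beyond their spread. Rest signal in neurons labelled RESTko thus lay near that of progenitors of either genotype on the deposited scale, and below that of NP RESTko under the other scalings just given.

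In the mixed-strain wildtype course Rest was read by 4 probe sets, and 3 of them fell at both steps. Probe set 1428227_at read 9.76 and 9.66 at ES, 7.76 and 7.49 at NP, and 5.04 and 4.64 at TN. Probe set 1425565_at read 9.47 and 9.71, then 7.55 and 7.09, then 5.22 and 4.73. Probe set 1425564_at read 6.04 and 6.53, then 4.07 and 3.93, then 2.87 and 2.998. In these 3 probe sets the arrays of different stages did not overlap, and each stage lay below the stage before. At TN 1425564_at stood below the median of all probe sets (3.94 to 3.95), so that its fall to TN is read from dim signal.

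Probe set 1425566_at stood apart from the other 3. It read 3.47 and 3.74 at ES, 3.26 and 3.33 at NP and 3.06 and 3.17 at TN, which is below the median of all probe sets on every array (3.83 to 3.95). The annotation ties 3 of the 4 probe sets to a single source sequence, so they are not independent readings. Over the 6 arrays the probe sets correlated in pairs at Pearson r of 0.879 to 0.995 (n = 6), a description of arrays that share their stages.

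**Figure D3:**
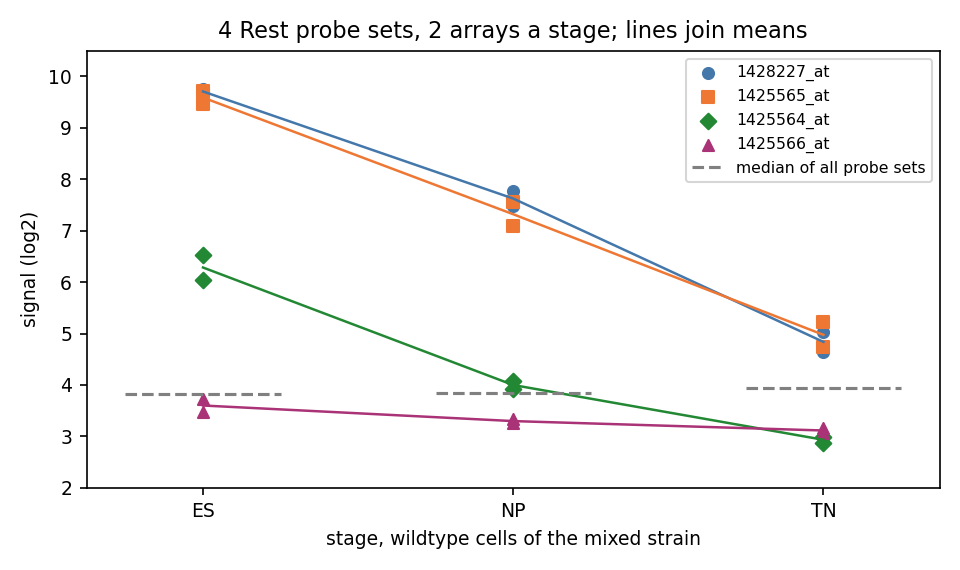
Log2 signal of the 4 Rest probe sets on the 6 mixed-strain wildtype arrays (vertical axis) by stage (horizontal axis); points are single arrays and lines join the stage means (n = 2); dashes mark the median of all probe sets. Probe sets 1428227_at, 1425565_at and 1425564_at fall at each step, and 1425566_at stays below 3.83, the lowest array median.

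From ES to NP, the probe sets 1428227_at, 1425565_at and 1425564_at differed by −2.08 (adjusted p = 3.07e-05), −2.27 (6.53e-05) and −2.29 (2.19e-05), and 1425566_at differed by −0.30 (0.163), in a step where limma called 28.9% of all probe sets. From NP to TN the first 3 differed by −2.79 (adjusted p = 2.02e-06), −2.35 (2.17e-05) and −1.07 (0.00101), and 1425566_at differed by −0.18 (0.367), with 42.1% called. Over the whole course the fall was 29.2-fold on 1428227_at (adjusted p = 5.18e-08) and 24.5-fold on 1425565_at (2.01e-07), with 48.4% of probe sets called. On 1425564_at, dim at TN, the difference was −3.35 (adjusted p = 4.57e-07, limma). On 1425566_at, below the median throughout, it was −0.49 (adjusted p = 0.0185), a call that was lost without ES replicate b (0.139) or TN replicate a (0.0783).

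The courses of the 2 platforms are given side by side, since values were not compared across them by a test. On the 18 arrays Rest fell 3.82-fold from ES RESTwt to TN RESThet. On the 6 arrays it fell 29.2-fold on 1428227_at, 24.5-fold on 1425565_at, 10.2-fold on 1425564_at and 1.40-fold on 1425566_at, the last 2 dim as given above. The share of the fall reached by NP was 42.8% on 1428227_at, 49.2% on 1425565_at, 68.2% on 1425564_at and 62.3% on 1425566_at. It was 76.7% on the 18 arrays, all on the deposited values. Size and share of the fall thus depended on the probe set. On the 18 arrays the steps from ES RESTwt to NP RESTwt and on to TN RESThet were −1.66 and −0.67 with array medians subtracted. Marker lists of other cells also read differently at TN, as means in RESThet and in the mixed-strain course. These were 5.83 and 3.895 for pluripotency, 8.19 and 7.09 for fibroblast and matrix, and 5.43 and 4.12 for endoderm and epithelial markers. The glial list ran the other way, at 6.72 and 7.03, and the neuron and progenitor lists lay close, all on the deposited values. The median of all probe sets at TN was 5.41 to 5.49 on the 18 arrays and 3.94 to 3.95 on the 6. List means of the 2 platforms are therefore not on a common scale, and do not show which course held more of a cell type. The part of these marker lists in the courses of Rest was not tested. Strain, platform, the genotype of the TN group, the probes and these marker levels differ together between the courses and cannot be told apart.

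The stages carried the markers of their labels, and those of other cells as well. On the 18 arrays the pluripotency list was highest at ES, the progenitor list at NP and the neuron list at TN. This held within RESTko and across the RESTwt and RESThet groups. The fibroblast and matrix list was also highest at TN (8.19 in RESThet and 8.38 in RESTko). The endoderm and epithelial list was highest at NP (7.46 in RESTwt and 7.14 in RESTko). Arrays of the same group correlated at 0.990 to 0.995 on the larger platform and 0.992 to 0.995 on the smaller, over all probe sets.

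The genes whose signal ran most like that of Rest over the 18 arrays were ranked by Pearson r among the 9128 genes whose group means spanned at least 1 on the log2 scale. P2rx7, an ATP-gated ion channel, came nearest (r = 0.991, n = 18), followed by Hsd17b14 (0.990), a steroid dehydrogenase, Kdm5c (0.988), a histone demethylase, Triml1 (0.987) and Psma8 (0.985), a proteasome subunit of male germ cells. Running most opposite were Clip3 (−0.990), Myh10 (−0.988), a non-muscle myosin heavy chain, Ankrd13b (−0.988), Zswim8 (−0.987) and Zfp142 (−0.987). Such values were common among genes that follow the stages: 1175 of the 9128 had r above 0.9 with Rest and 1419 had r below −0.9. The arrays share stage and genotype, so that r describes this set and no more.

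Kdm5c, which like Rest is lower in ES RESTko (−0.28, adjusted p = 0.00635, limma), ran the other way on the other platform. It had a mean signal of 9.62 in ES RESTwt, 8.69 in NP RESTwt and 8.38 in TN RESThet, but 6.95, 7.72 and 8.17 at ES, NP and TN in the mixed-strain course. Of the 50 genes most like Rest on the 18 arrays, 46 were measured on the 6, and 44 of these had a lower mean at NP than at ES, against 50.9% of all genes there. From NP to TN 37 of the 46 had a lower mean, against 59.1% of all genes. Ranked within the mixed-strain course itself against 1428227_at, Pgm3, Mastl, Shc1, Gsta4 and Crip1 stood nearest, with r of 0.9996 to 0.9999 over 6 arrays that share their stages.

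Genes called, like Rest, lower in RESTko at ES and higher at TN were counted. Of 19938 genes, 590 were called lower at ES (2.96%) and 51 were called higher at TN (0.256%), and the 2 called in both were Rest and Rps3a1. These are 3.92% of the genes called higher at TN, near the 2.96% of all genes called lower at ES. The small count thus follows from the small shares called, and does not mark the pattern as particular to Rest. Rps3a1 encodes a ribosomal protein and has near-identical copies in the genome, so that its probe set is uncertain. It differed from Rest at NP, where it was called lower in RESTko (−0.52, adjusted p = 0.00264, limma), and its differences at ES and TN were −0.42 and 1.36.

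The genes beside Rest on chromosome 5 were read next. Among the 5 measured genes on each side, 2 of 10 were called higher in ES RESTko, where 4.09% of all genes were called higher. Noa1, a mitochondrial GTPase and the next measured gene after Rest, had a mean of 7.36 in ES RESTwt and 8.15 in ES RESTko, a difference of 0.79 (adjusted p = 5.39e-05, limma). Polr2b, an RNA polymerase II subunit and the gene after that, differed by 0.34 (adjusted p = 0.00326). At NP none of the 10 was called (Noa1 0.29, adjusted p = 0.0746), nor at TN (Noa1 −0.02). Srp72, Arl9, Thegl, Hopx and Spink2 on the other side were called at no stage, and the median difference of 1143 other genes of chromosome 5 was −0.01 at ES, 0.02 at NP and −0.01 at TN.

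**Figure D4:**
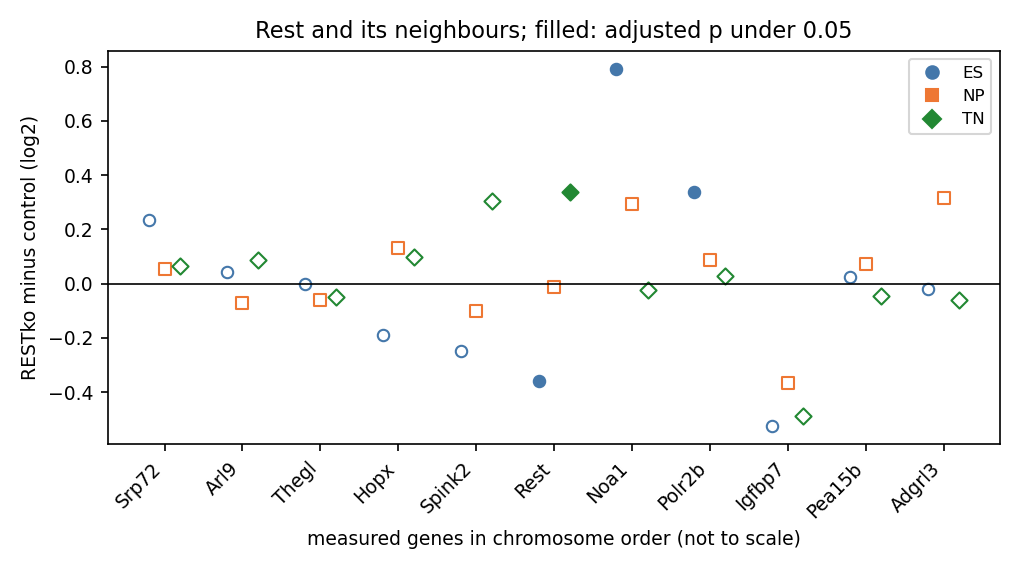
Difference in log2 signal between RESTko and its control (vertical axis) for Rest and the 5 measured genes on each side of it in the order of the chromosome (horizontal axis), at each stage. Noa1 and Polr2b stand above 0 at ES, with 0.79 and 0.34, whereas Rest stands at −0.36.

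The corepressors of REST showed few called genotype differences. Of 21 measured members (of 23 listed), none was called higher and 2 were called lower at ES, where 4.09% of all genes were called higher and 2.96% lower. There were none higher and 1 lower at NP, where 3.04% of all genes were called higher and 2.6% lower, and none in either direction at TN, where 0.256% of all genes were called higher and 0.642% lower. Sin3b, a scaffold of histone deacetylase complexes, was lower in RESTko by 0.31 at ES (adjusted p = 0.0150, limma) and by 0.41 at NP (adjusted p = 0.00340). The other call at ES was Kdm5c. Rcor1, Rcor2, Sin3a, Hdac1, Hdac2 and the demethylase Kdm1a were not called at any stage. These calls for Sin3b and Kdm5c at ES, and for Sin3b at NP, were lost when only the compared groups set the spread.

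Genes that act on REST itself, through splicing, degradation or localisation, differed in a few members. Of 21 measured (of 22 listed) 2 were called higher at ES (4.09% of all genes), 2 at NP (3.04%) and none at TN (0.256%), and none was called lower at any stage. Srrm3, a paralog of Srrm4, had a mean of 4.87 in ES RESTwt and 5.38 in ES RESTko (0.51, adjusted p = 0.00145, limma), and of 5.84 and 6.93 at NP (1.09, adjusted p = 2.28e-06). Srrm4 had means of 7.19 and 7.76 at NP (0.56, adjusted p = 0.0388), and Prickle1, which binds REST outside the nucleus, 5.22 and 5.68 at ES (0.46, adjusted p = 0.00357). Btrc, the deubiquitinase Usp7 and the splicing regulator Ptbp1 were not called. With only the compared groups in the fit, 1 member was called higher at ES and 1 at NP. At NP the count was also 1 when any RESTko array was left out, but 4 in the gene-level fit and without RESTwt replicate a. Srrm3 and Srrm4 are neuronal genes, and the list was chosen with earlier results of these data known.

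The RE1 targets, neuronal genes known to be repressed by REST, were read in the same arrays. Of 45 measured (of 50 listed), 19 were called higher in RESTko at ES (4.09% of all genes) and none lower (2.96%), with a median difference of 0.25 against −0.03 for all genes. At NP 31 were called higher (3.04% of all genes) and none lower (2.6%), with a median of 0.98 against 0.01, and 13 were called higher with only the compared groups in the fit. Other lists moved at NP as well: 6 of 14 neuron markers were called higher in RESTko, with array means of 7.499 to 8.16 in RESTwt and 8.32 to 8.65 in RESTko. The neuron list is not separate from the RE1 list, since both hold Tubb3, Snap25, Nefm and Stmn2. Of these shared genes, Snap25 and Nefm were among the neuron markers called. Of 12 fibroblast and matrix markers 4 were called lower (6.42 to 6.83 in RESTwt and 5.93 to 6.402 in RESTko), as were 4 of 15 endoderm and epithelial markers (7.28 to 7.77 in RESTwt and 7.09 to 7.19 in RESTko). The part of these lists in the change of the RE1 targets was not tested. At TN, where 0.256% of all genes were called higher and 0.642% lower, 1 was called higher, Slc18a3 (0.65, adjusted p = 0.0110, limma), and 2 lower, Tac1 (−1.12, adjusted p = 0.0487) and Calb1 (−0.55, adjusted p = 0.0117), with a median of 0.02 against −0.02. With only the compared groups in the fit none was called at TN.

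Array by array, the mean signal of the RE1 list was 5.02 to 5.09 in ES RESTwt and 5.88 to 5.89 in ES RESTko, and 5.73 to 6.22 in NP RESTwt and 6.96 to 7.10 in NP RESTko. In neurons it was 8.41 to 8.47 in RESThet and 8.32 to 8.56 in RESTko. In the mixed-strain course its mean was 4.27 at ES, 4.82 at NP and 8.11 at TN. The list was thus separated between genotypes at NP, where no difference of Rest signal was detected. It overlapped between genotypes in neurons, where Rest was called higher in RESTko, a call lost in several alternatives.

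**Figure D5:**
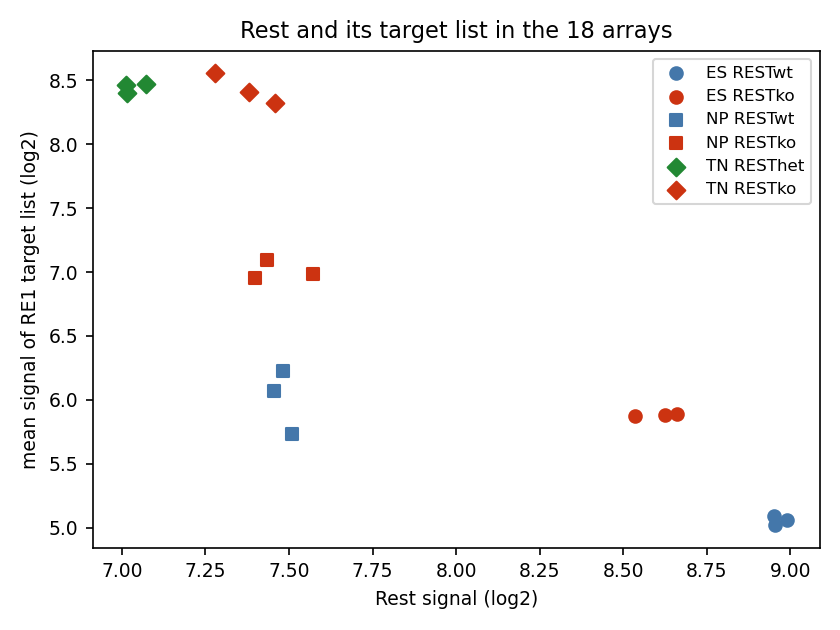
Mean log2 signal of the RE1 targets (vertical axis) against the log2 signal of Rest (horizontal axis), with a point for each of the 18 arrays; colours mark the labelled genotypes and shapes the stages. RESTko and RESTwt progenitors share a Rest signal near 7.5 and lie apart on the target axis.

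Of the 14 measured genes whose promoter window holds the element shown above, 5 were called higher at NP (3.04% of all genes) and none lower, with a median of 0.27. Gria2, the only one that is also in the RE1 list, had means of 6.09 ± 0.76 and 7.40 ± 0.40 (SD, n = 3 each) in NP RESTwt and NP RESTko, a difference of 1.31 (adjusted p = 0.0110, limma). The differences were 1.15 for Hrh3 (adjusted p = 4.93e-05), 0.64 for Robo2 (0.00326), 0.55 for Osbp2 (0.000668) and 0.45 for Scamp5 (0.0165). None of the 14 was called higher at ES or TN, and Ogdhl was called lower at ES (−1.59, with 2.96% of all genes called lower) and TN (−0.66, with 0.642%).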

How the data were processed

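The members, gene lists and rules were chosen with earlier results of these data known. The authors deposited a log2 signal for each probe set. The submitters' processing notes name oligo 1.14.0; for background correction and normalization the method is not given in the sources used here. RNA was extracted with TRIzol and RNeasy and biotin-labelled, per the labels' protocols. Values were used as deposited. Symbols were updated by gene number to GRCm38.p6; a gene was read by its probe set with the highest mean. A mean for each group was fitted to all probe sets with limma 3.58.1 in R 4.3.3, for each platform separately, with two-sided moderated tests, Benjamini-Hochberg adjustment over all probe sets and calls at an adjusted p under 0.05. In simulated data the fit recovered 87% of 200 probe sets changed by 1 on the log2 scale in the ES comparison of 18 arrays, and 98% of 200 changed by 3 in the ES to NP step of 6 arrays. These changes are larger than the genotype differences of Rest and its ES to NP step on the 6 arrays. The shares therefore do not describe recovery at those sizes. Genes named are Rest, its 5 nearest and 5 most opposite genes by r, its neighbours, and called list members. Same-lettered arrays deviated together at r of −0.09 to 0.22, so letters were not taken as pairs. The alternatives tried were another normalization, filtering of dim probe sets, array weights, limma's trend and robust options and a gene-level fit. Fits of the compared groups alone, a replicate block and leaving out each array were tried as well.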

Additional observations from a re-analysis of the deposited data

Results flagged for a closer look

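The difference of RESTko from its control was not the same in neurons and ES cells: RESTko minus RESThet at TN exceeded RESTko minus RESTwt at ES by 0.70 on the log2 scale (adjusted p = 0.000589, limma, 18 arrays). It stands here because the test of the difference between these effects passed the threshold. All 3 RESTko arrays lay below the RESTwt arrays at ES and all 3 above the RESThet arrays at TN. Genotype of the control and stage change together in this contrast and cannot be told apart.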

How the results depend on the processing

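Of 307 values recomputed for 23 results, 288 kept their direction and their side of the threshold, 7 lost the call, 8 gained it and 4 changed sign. Those 4 all concern RESTko minus RESTwt at NP, which was not called in any fit: 0.0096 with array medians subtracted, 0.0085 with array weights, and −0.0655 to 0.0218 without single arrays. The neuronal difference of Rest was 0.34 with the compared groups alone but lost its call (adjusted p = 0.236, limma), and ran from 0.30 to 0.39 when single arrays were left out. The effect at TN minus that at NP was called with quantile normalisation (0.44, adjusted p = 0.0356) and without the dimmest 30% of probe sets (0.35, 0.0484), and ran from 0.31 to 0.41 without single arrays, with a call gained without NP RESTko replicate c (adjusted p = 0.0446) or TN RESTko replicate a (0.0481). The effect at NP minus that at ES was called without the dimmest 30% (0.34, 0.0468) and with array weights (0.38, 0.0273). Neither of these differences of effects was called in its other alternatives. There the adjusted p reached 0.169 for TN minus NP and 0.171 for NP minus ES (limma). The NP to TN step in RESTko was called with quantile normalisation (−0.23) and with array medians subtracted (−0.34). The ES to TN difference of 1425566_at ran from −0.62 to −0.35 without single arrays. The cause was not tested, except that fits of the compared groups alone use fewer arrays. With the replicate block no call of Rest changed, at −0.36 for ES (adjusted p = 0.00520) and 0.34 for TN (0.0302).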
